A study of Mus musculus with 3 samples.

Results

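Myc, its partner genes Max and Mxd4, and 41 genes whose products build ribosomes were examined in preosteoblasts exposed to titanium (Ti) particles. The 44 genes were taken from a fixed list of gene symbols, and all 44 were present among the 15287 genes of the expression table. That list was chosen with earlier results of these data known. The cells were MC3T3-E1, a wild-type preosteoblast line derived from mouse calvaria, so every library came from a single cell line. The CTL library was from cells with no special treatment, the Ti library was made after 24 h with 10 μg per cm2 of Ti particles, and the Ti+Se-Met library after 24 h with those particles plus 5 μM selenomethionine (Se-Met). There was 1 library for each condition, so the differences have no replicate check and no p-value is given. Levels are FPKM, the fragments of a gene relative to its transcript length and to the mapped total of the library.

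MYC is a transcription factor that binds DNA as a dimer with MAX, and the MXD proteins compete with MYC for MAX and repress transcription. A well-known function of MYC is to raise the output of new ribosomes, through RNA polymerase I, the nucleolar assembly factors and the ribosomal proteins. In the nucleolus, RNA polymerase I transcribes the ribosomal RNA precursor, small nucleolar ribonucleoproteins (snoRNPs) modify it, and separate sets of factors process and assemble the small and the large subunit. Preosteoblasts are proliferating cells that later secrete collagen and mineralise their matrix.

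The number of fragments was not used directly, and was estimated from the steps of 1 fragment visible in low FPKM values of short genes. The CTL library held an estimated 14000000 fragments, the Ti library 14700000 and the Ti+Se-Met library 10700000. These numbers are approximate, since 39.76% to 54.05% of the low values lay on a step against 11.65% to 14.1% by chance. Folds are ratios of FPKM, with a 95% exact conditional binomial interval computed from estimated fragments, which covers counting error only and compares libraries. Log2 differences are between values of log2(FPKM + 1), and the comparison set was the 11137 genes that reached 1 FPKM in any library. All 44 genes passed this filter. Genes were counted as 2-fold or 1.5-fold different on the log2(FPKM + 1) scale, on which a change is slightly smaller than in FPKM. Gnl3, Nip7 and Bop1 were past 2-fold in Ti by FPKM but not on this scale. The 7 osteoblast markers were all listed, and their summed FPKM was 4700.27 in CTL, 1833.48 with Ti and 2270.19 with Ti plus Se-Met. Col1a2 (2688.49 FPKM in CTL) and Col1a1 (1333.19 FPKM) made up most of the CTL sum. In the same order of libraries, Alpl measured 1.51, 0.2 and 0.2 FPKM, Bglap 0.46, 0.8 and 0.31 FPKM, and Sp7 0.63, 0.37 and 0.54 FPKM. The 9 listed markers of adipocytes, chondrocytes, skeletal muscle and macrophages did not exceed 0.72 FPKM in any library. Bglap and Sp7 did not reach that level in CTL either. In bulk RNA, more cells of one state and more RNA per cell cannot be told apart.

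Compared with CTL, the Ti library held higher levels of ribosome biogenesis genes at nearly every step of the pathway. Of the 44 genes, 20 were at least 2-fold higher in Ti, whereas 3.63% of all 11137 genes were. A 1.5-fold difference was passed by 35 of the 44, against 15.5% of all genes. Altogether 43 genes were higher by any amount, against 55.3% of all genes. Mxd4 was the only one of the 44 that was lower, and it was past 1.5-fold, as were 11.3% of all genes. The median log2 difference was 0.98 over the 44 genes and 0.08 over all genes. Counting error alone gave an interval above 1 for 42 folds, below 1 for Mxd4 and spanning 1 for Max. Intervals were computed for the 44 genes only, so no share of all genes stands beside these counts.

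The scale between libraries affects the counts more than the distance from other genes. FPKM summed to 448285.42 in CTL and 526016.9 in Ti. When each library was scaled to the same sum (TPM), the median log2 difference of all genes fell by 0.21, and 8 of the 44 genes were past 2-fold. The split of all genes past 2-fold was 404 higher and 405 lower as deposited, and 233 higher and 864 lower as TPM. The median of the 44 genes less that of all genes was 0.90 as deposited and lay between 0.78 and 0.98 in the other settings examined.

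**Figure D1:**
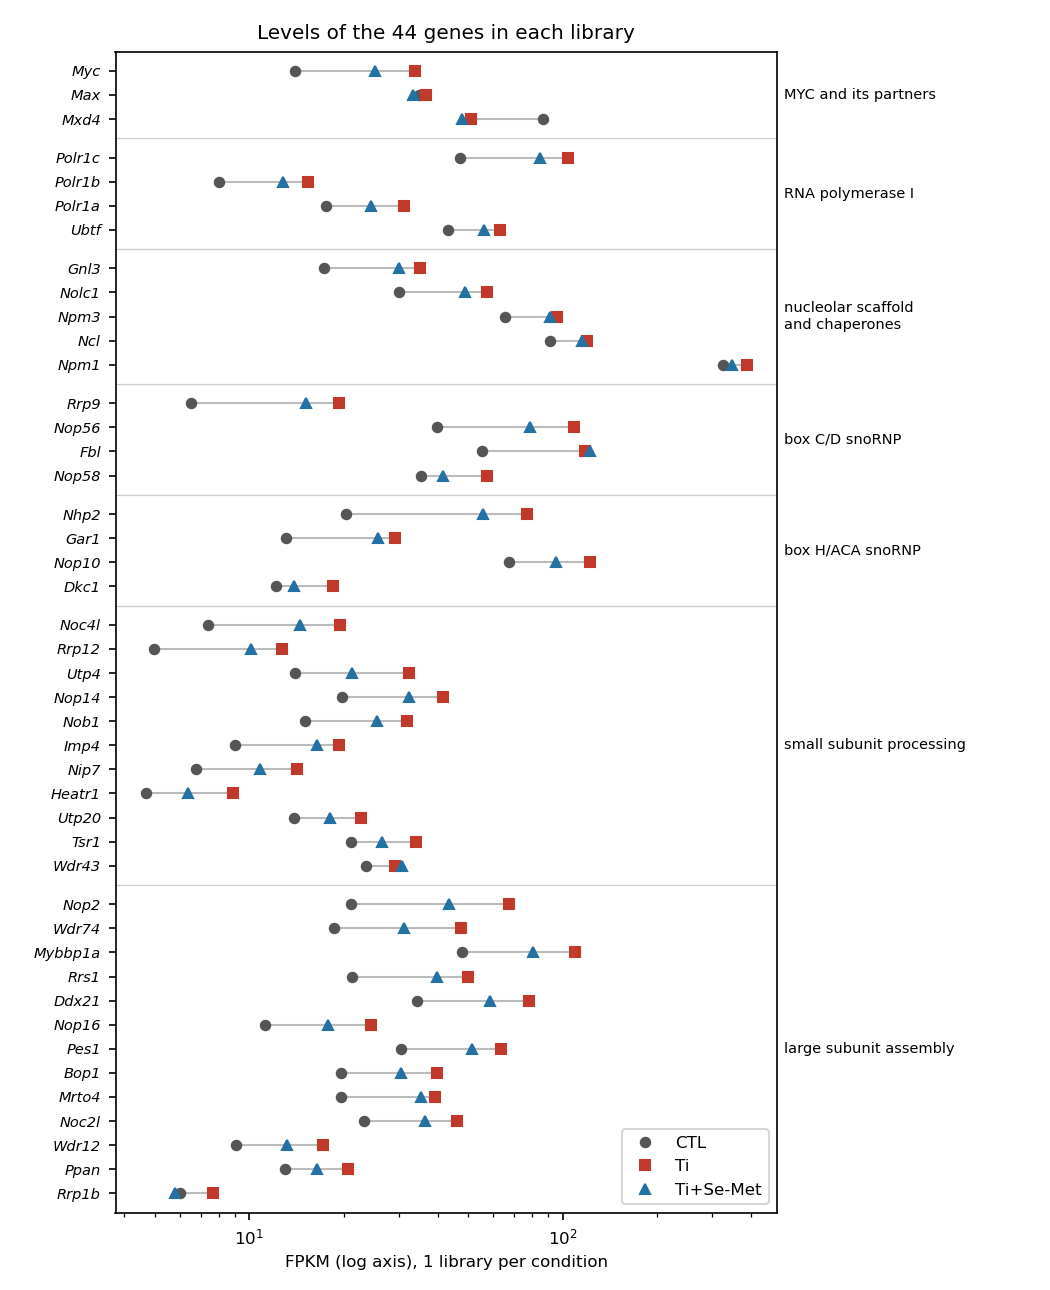
FPKM of each of the 44 genes on a log axis in the CTL, Ti and Ti+Se-Met libraries, with 1 point per library and genes arranged by role. The median of the 44 genes was 19.67 FPKM in CTL, 37.8 with Ti and 30.91 with Ti plus Se-Met, and Mxd4 is the one gene with its Ti point left of its CTL point.

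Among the MYC dimerisation genes, Myc itself was higher with Ti, Max was level and Mxd4 was lower. Myc measured 14.01 FPKM in CTL, 33.72 with Ti and 25.22 with Ti plus Se-Met. The fold of Ti over CTL was 2.41 (95% interval 2.11 to 2.74), and that of Ti+Se-Met over Ti was 0.748 (0.666 to 0.840). The Ti+Se-Met level of Myc therefore lay between the other two, and above CTL. Max, the obligate partner of MYC, measured 34.78, 36.51 and 33.35 FPKM in the same order, and the interval of its fold spanned 1 in every comparison. Its small difference in Ti was negative when libraries were scaled to TPM or to the upper quartile. Mxd4, which encodes a MAX-binding repressor, measured 86.35 FPKM in CTL, 51.13 with Ti and 47.78 with Ti plus Se-Met. It was at 0.592 of its CTL level in Ti (0.561 to 0.625) and did not return toward CTL with Se-Met. As transcripts per length, Mxd4 exceeded Myc in every library, and the ratio of Myc to Mxd4 was 0.162 in CTL, 0.660 with Ti and 0.528 with Ti plus Se-Met. Across the 8 other genes of the MYC network that were listed, no gene was past 1.5-fold in Ti on the log2(FPKM + 1) scale. Their differences ran from -0.53 log2 for Mxd1 (3.61, 2.19 and 1.78 FPKM) to 0.58 log2 for Mlx (15.15, 23.13 and 22.88 FPKM). As ratios of FPKM, Mxd1, Mlx and Zbtb17 (6.59, 10.11 and 10.95 FPKM) were past 1.5-fold. Mga, a MAX-binding repressor, measured 7.52, 5.76 and 4.69 FPKM. Mycn and Mycl were not listed in the table.

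MYC-MAX and MXD-MAX dimers recognise the E-box CACGTG, which reads the same on both strands, so the promoters of the 44 genes were searched for it. RefSeq windows on build GRCm38.p6 ran from 250 bases before to 50 bases after the transcription start. They were matched by gene identifier, or by symbol where the identifier gave no match. Windows were found for 38 of the genes, with 47 promoters in all. Myc, Npm1, Fbl, Bop1, Rrp12 and Rrs1 had no entry. CACGTG was found in 10 of the 47 promoters (21.28%), in 10.1% of 11465 promoters of all genes that passed the filter and in 7.15% of all 32851 promoters. Each match is printed below with up to 12 bases on either side, 5′ to 3′ on the strand of the gene and with the E-box in capitals, because these are the letters the dimers are known to read. The windows of Mybbp1a and Utp20 end at the edge of the promoter.
Nop2 (chr6:125131811-125131840, plus strand): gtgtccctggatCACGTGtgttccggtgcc
Mybbp1a (chr11:72441355-72441376, plus strand): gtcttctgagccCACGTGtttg
Utp4 (chr8:106893643-106893672, plus strand): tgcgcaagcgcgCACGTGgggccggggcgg
Pes1 (chr11:3963965-3963994, plus strand): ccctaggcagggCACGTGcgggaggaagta
Imp4 (chr1:34439696-34439725, plus strand): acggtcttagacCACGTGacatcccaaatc
Utp20 (chr10:88826765-88826789, minus strand): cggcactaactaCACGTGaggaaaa
Tsr1 (chr11:74898092-74898121, plus strand): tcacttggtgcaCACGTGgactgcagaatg
Wdr43 (chr17:71616220-71616249, plus strand): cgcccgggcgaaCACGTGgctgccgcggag
Max (chr12:76962234-76962263, minus strand): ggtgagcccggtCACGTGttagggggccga
Mxd4 (chr5:34187912-34187941, minus strand): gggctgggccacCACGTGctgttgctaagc

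The E-box lay before the start in Nop2 (60 bases), Imp4 (121 bases) and Mxd4 (219 bases). In Max its first base was 3 bases before the start, so the motif ran across it. In the other 6 genes it began between base 3 (Pes1) and base 41 (Mybbp1a) of the transcribed sequence. Their products act in subunit processing or assembly, as do those of Nop2 and Imp4. A match that did not lie wholly in the 250 bases before the start was thus found in 7 of the 10 promoters, or 14.9% of the 47, against 1.69% of the promoters of genes that passed the filter. That position was noticed after the matches were seen, and when only the 250 bases before the start were searched the share was 6.383%, against 8.408% of the promoters of genes that passed the filter. Median GC content was 59.67% in the promoters of the 44 genes and 61.0% in those of genes that passed the filter. Genes with and without the motif did not separate by their difference in Ti. The 10 genes with CACGTG had a median log2 difference of 0.85, with Nop2 at 1.63 and Mxd4 at -0.74 as the extremes, and the 28 genes without it had a median of 0.96. At least 2-fold higher were 5 of the 10 and 11 of the 28. Among other genes that passed the filter, the median was 0.17 for 1073 genes with the motif and 0.07 for 7868 without it. Nhp2, with the largest difference of the 44, had no CACGTG in the window. A match is a description of the sequence only, and binding was not measured.

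RNA polymerase I subunits and the factor that opens ribosomal DNA were all higher with Ti. Polr1c, a subunit shared by RNA polymerases I and III, measured 47.03 FPKM in CTL, 104.37 with Ti and 84.81 with Ti plus Se-Met, with a fold in Ti of 2.22 (2.04 to 2.42). Polr1b, the second largest subunit, measured 8.03, 15.41 and 12.78 FPKM. Polr1a, the catalytic subunit, measured 17.53, 31.2 and 24.42 FPKM. The 3 subunits thus differed by 1.13, 0.86 and 0.80 log2 in Ti, and each was lower in Ti+Se-Met than in Ti. Ubtf encodes the upstream binding factor that holds ribosomal DNA in an active state, and it measured 43.16, 63.32 and 56.17 FPKM. Its fold of 1.47 in Ti (1.32 to 1.64) was the smallest of these 4 genes.

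The abundant nucleolar proteins differed less. Npm1, encoding nucleophosmin, a chaperone of the nucleolus, was the most abundant of the 44 transcripts, with 325.76 FPKM in CTL, 387.1 with Ti and 347.81 with Ti plus Se-Met. Its fold in Ti was 1.19 (1.14 to 1.23). Processed copies of Npm1 exist elsewhere in the genome, and how shared reads were assigned is not stated, so its level is uncertain. Ncl, encoding nucleolin, measured 90.88, 119.5 and 115.23 FPKM, with a fold in Ti of 1.31 (1.26 to 1.37). Npm3, a relative of nucleophosmin, measured 65.63, 95.57 and 91.42 FPKM. Larger differences were found for Nolc1 (30.04, 57.47 and 48.69 FPKM), a scaffold that carries snoRNPs, and for Gnl3 (17.29, 35.06 and 30.12 FPKM), which encodes the GTPase nucleostemin. On the log2 scale, Gnl3 differed by 0.98 and Npm1 by 0.25 in Ti, and no gene of these 5 passed 2-fold. For Ncl and Npm3 the interval of the fold of Ti+Se-Met over Ti included 1, and the sign of that small difference turned positive when libraries were scaled by the median of ratios or the upper quartile.

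Some components of the snoRNPs were among the largest differences. The box C/D snoRNP methylates ribosomal RNA, and its 4 genes had a median log2 difference of 1.25 in Ti. Rrp9, which binds the box C/D RNA that guides precursor cleavage, measured 6.5 FPKM in CTL, 19.31 with Ti and 15.21 with Ti plus Se-Met, a fold in Ti of 2.97 (2.43 to 3.64) that rested on about 131 fragments in CTL. Nop56, a core protein, measured 39.72, 108.35 and 78.65 FPKM, a fold in Ti of 2.73 (2.54 to 2.94). Nop58, the partner of NOP56 in the core, measured 35.28, 57.56 and 41.65 FPKM, a fold in Ti of 1.63 (1.53 to 1.74). The core genes therefore did not differ to the same degree, and the ratio of Nop56 to Nop58 was 1.13 in CTL, 1.88 with Ti and 1.89 with Ti plus Se-Met. Fbl, encoding the methyltransferase fibrillarin, measured 55.26 FPKM in CTL, 117.83 with Ti and 122.15 with Ti plus Se-Met. Its level in Ti+Se-Met was at 1.04 of that in Ti (0.965 to 1.11), whereas Nop56 was at 0.726 (0.680 to 0.774) and Nop58 at 0.724 (0.676 to 0.775).

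The box H/ACA snoRNP converts uridines of ribosomal RNA to pseudouridine, and its 4 core genes also separated. Their median log2 difference in Ti was 0.98, like that of the 44 genes. Nhp2 had the largest difference of all 44 genes, with 20.33 FPKM in CTL, 77.05 with Ti and 55.76 with Ti plus Se-Met, a fold in Ti of 3.79 (3.30 to 4.36). Gar1 measured 13.12, 29.25 and 25.67 FPKM, a fold in Ti of 2.23 (1.89 to 2.64). Nop10, the smallest core protein, measured 67.17, 122.64 and 95.22 FPKM. Dkc1, encoding the pseudouridine synthase dyskerin, showed the smallest difference of the complex, at 12.17, 18.57 and 13.91 FPKM. The fold of Dkc1 in Ti was 1.53 (1.36 to 1.72), and its interval for Ti+Se-Met over CTL spanned 1. The ratio of Nhp2, with the largest difference of the complex, to Dkc1 was 1.67 in CTL, 4.15 with Ti and 4.01 with Ti plus Se-Met. Ratios to Dkc1 varied less for Gar1 (1.078, 1.575 and 1.845) and Nop10 (5.519, 6.604 and 6.845). Nhp2, Gar1, Nop10 and Dkc1 products are present together in each particle, and their transcripts were thus not in a fixed ratio across the libraries.

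Small subunit processing was represented by 11 genes, all higher with Ti, 6 of them at least 2-fold. Of all genes, 55.3% were higher and 3.63% at least 2-fold. Noc4l, encoding the partner of NOP14 in the small subunit precursor, showed the largest difference, with 7.37 FPKM in CTL, 19.44 with Ti and 14.47 with Ti plus Se-Met (fold in Ti 2.64, 2.23 to 3.11). Rrp12, needed for export of the precursors, followed with 4.98, 12.72 and 10.12 FPKM. Utp4, a subunit of the complex that first binds the precursor RNA, measured 14.02, 32.37 and 21.28 FPKM. Utp4 had the largest decrease with Se-Met of this group, to 0.657 of its Ti level (0.588 to 0.734). Nop14 (19.72, 41.48 and 32.23 FPKM), Imp4 (8.99, 19.38 and 16.5 FPKM) and Nob1, the nuclease that makes the final cut (15.1, 31.93 and 25.53 FPKM), each had a log2 difference between 1.03 and 1.04 in Ti. Heatr1, Utp20 and Tsr1 lay between 1.5-fold and 2-fold. Heatr1 measured 4.67, 8.86 and 6.39 FPKM, Utp20 measured 13.92, 22.76 and 18.12 FPKM, and Tsr1, a GTPase-like late factor, measured 21.11, 34.17 and 26.48 FPKM. The least precise member was Nip7, with 6.76, 14.24 and 10.82 FPKM and a fold in Ti of 2.11 (1.45 to 3.09) on about 43 fragments in CTL. Wdr43 had the highest CTL level of the group and the smallest difference, with 23.6, 29.17 and 30.75 FPKM. Its fold in Ti was 1.24 (1.13 to 1.35), and it was not lower with Se-Met (1.05 of Ti, 0.968 to 1.15).

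Large subunit assembly held 13 genes, all higher with Ti, 7 of them at least 2-fold, against 55.3% and 3.63% of all genes. Nop2, a methyltransferase of the large subunit RNA, measured 21.08 FPKM in CTL, 67.31 with Ti and 43.3 with Ti plus Se-Met. The fold of Nop2 in Ti was 3.19 (2.94 to 3.47), and its fold of Ti+Se-Met over Ti was 0.643 (0.599 to 0.691). It was second to Nhp2 in the first difference and had the largest decrease with Se-Met of the 44 genes. Wdr74, a large subunit assembly factor, measured 18.66, 47.39 and 31.07 FPKM, with a fold in Ti of 2.54 (2.21 to 2.93). Mybbp1a, a nucleolar MYB-binding protein, had the highest CTL level of the group, with 47.62, 109.52 and 80.58 FPKM. Rrs1, which brings the particle with its small ribosomal RNA into the precursor, measured 21.35, 49.73 and 39.64 FPKM. Ddx21, a nucleolar RNA helicase, measured 34.42, 78.36 and 58.82 FPKM. Nop16 was also past 2-fold, with 11.22, 24.4 and 17.84 FPKM.

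The PeBoW complex of Pes1, Bop1 and Wdr12, a known MYC-regulated module of large subunit maturation, showed nearly equal differences. Pes1 measured 30.44 FPKM in CTL, 63.49 with Ti and 51.31 with Ti plus Se-Met, Bop1 measured 19.56, 39.77 and 30.58 FPKM, and Wdr12 measured 9.06, 17.22 and 13.19 FPKM. Their folds in Ti were 2.09 (1.95 to 2.24), 2.03 (1.85 to 2.24) and 1.90 (1.67 to 2.17), with overlapping intervals. The ratio of Pes1 to Wdr12 was 3.36 in CTL, 3.69 with Ti and 3.89 with Ti plus Se-Met. That range was narrower than those of Nop56 to Nop58 and of Nhp2 to Dkc1, and nearer to that of Nop10 to Dkc1. Mrto4 (19.62, 39.1 and 35.27 FPKM) and Noc2l (23.26, 46.05 and 36.44 FPKM) lay just under 2-fold with a log2 difference of 0.96 each, and Ppan measured 12.98, 20.67 and 16.46 FPKM. Rrp1b had the smallest difference of the group, at 6.01, 7.68 and 5.79 FPKM, and its Ti+Se-Met level was within counting error of CTL.

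**Figure D2:**
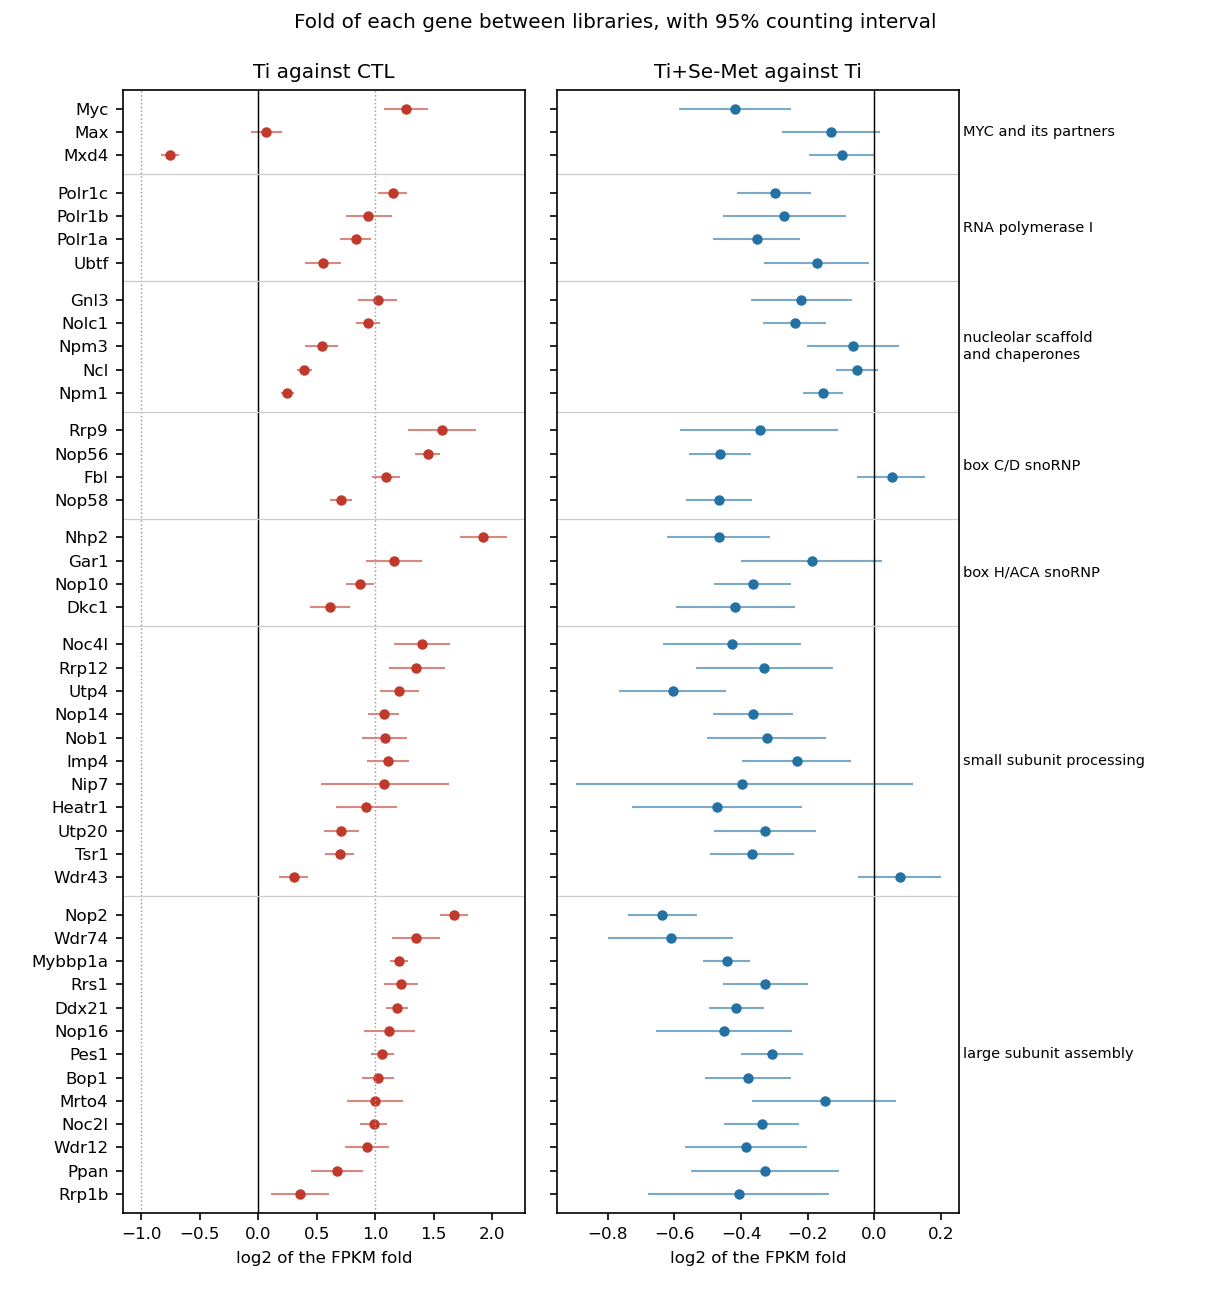
Log2 of the FPKM fold for each of the 44 genes, left for Ti over CTL and right for Ti+Se-Met over Ti, with bars for the 95% counting interval, a solid line at equal levels and dotted lines at 2-fold. For Ti over CTL 42 intervals lie above equal levels, while for Ti+Se-Met over Ti 36 lie below and 0 above. Intervals were computed for these 44 genes only.

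The Ti+Se-Met library addressed whether Se-Met given with the particles changed these levels. Compared with Ti, 42 of the 44 genes were lower by any amount, as were 61.1% of all genes. The median log2 difference was -0.33 for the 44 genes and -0.06 for all genes. Genes that were high in Ti are a further comparison, but a limited one. They were picked by the same Ti value that Ti+Se-Met is set against, so that choice alone favours a fall. Of the 20 among the 44 that were at least 2-fold higher in Ti against CTL, 19 were lower in Ti+Se-Met than in Ti. Of all 404 such genes, 81.2% were. The median share of the log2 difference that was undone was 30.7% for the 20 genes and 20.3% for the 404. The Ti value enters both parts of this share. The decreases were small, since 2 genes (Nop2 and Wdr74) were at least 1.5-fold lower, against 1.29% of all genes, and 0 were at least 2-fold lower, against 0.0629%. Utp4, at 0.657 of its Ti level in FPKM, fell just short of 1.5-fold on the log2(FPKM + 1) scale used for these counts. The 5 lowest log2 differences belonged to Nop2, Wdr74, Utp4, Nhp2 and Nop58, and the 5 highest to Wdr43, Fbl, Ncl, Npm3 and Mxd4. For 8 genes the counting interval spanned 1. These were Max, Npm3, Ncl, Fbl, Gar1, Nip7, Wdr43 and Mrto4.

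Compared with CTL, the Ti+Se-Met library still had higher levels of most of the 44 genes. Higher by any amount were 41, against 51.0% of all genes, and 26 were at least 1.5-fold higher, against 10.4%. At least 2-fold higher were Rrp9, Fbl, Nhp2 and Nop2, so 4 of the 44, against 2.64% of all genes. Mxd4 was again at least 1.5-fold lower, as were 11.8% of all genes. The median log2 difference from CTL was 0.63, against 0.01 for all genes. When scaled to TPM, 14 genes rather than 26 were past 1.5-fold and their median was 0.45, while 715 rather than 1159 of all genes were past 1.5-fold and the median of all genes was -0.17. The median of the 44 genes less that of all genes was 0.63 as TPM and 0.61 as deposited. Every comparison shares libraries with the others, so the differences in Ti and in Ti+Se-Met are not independent of each other.

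**Figure D3:**
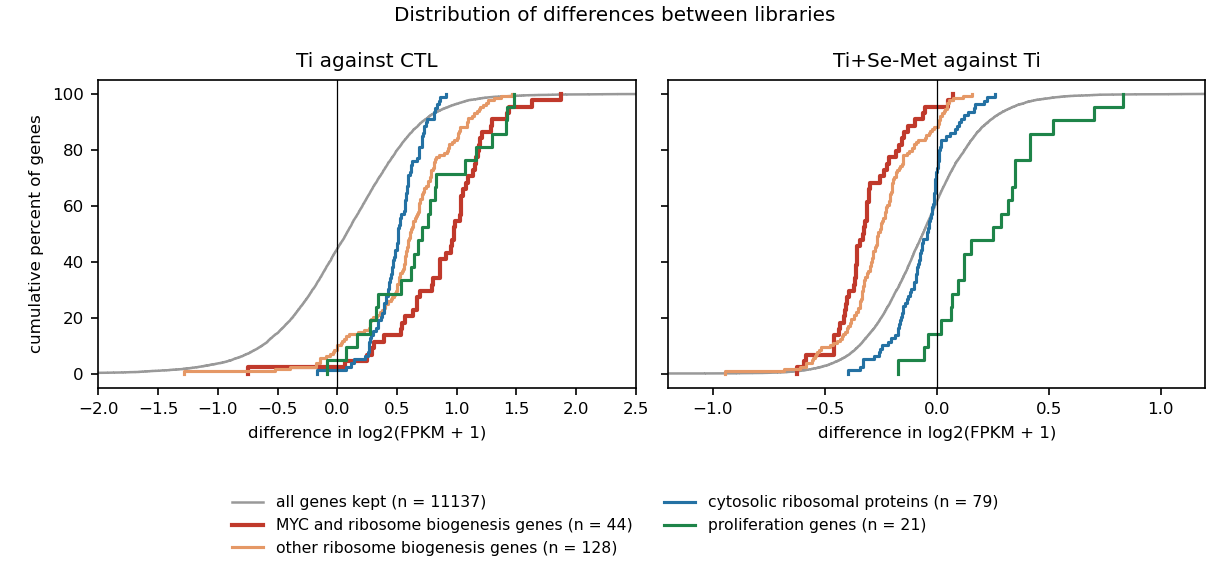
Cumulative percent of genes against the difference in log2(FPKM + 1), left for Ti less CTL and right for Ti+Se-Met less Ti, for all 11137 genes that passed the filter, the 44 genes, 128 other ribosome biogenesis genes, 79 ribosomal protein genes and 21 proliferation genes. The curve of the 44 genes lies to the right of that of all genes on the left side (median 0.98 against 0.08) and to its left on the right side (-0.33 against -0.06), where the proliferation curve lies to the right (0.25).

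Other genes of ribosome biogenesis, on lists of known factors that are not among the 44, showed the same direction with smaller differences. These lists too were chosen with earlier results of these data known, so they are no independent check on the 44 genes. Of 128 such genes, 117 were higher in Ti, 70 of them at least 1.5-fold and 21 at least 2-fold. Among all genes these shares were 55.3%, 15.5% and 3.63%. The median log2 difference of the 128 was 0.61. The lists had similar medians, from 0.59 for 17 RNA polymerase I genes to 0.76 for 9 snoRNP assembly genes. Large differences were found for Wdr46 (14.03 FPKM in CTL, 40.47 with Ti and 27.43 with Ti plus Se-Met) and Tbl3 (14.08, 38 and 23.29 FPKM), both of small subunit processing. Ddx27, a helicase of the large subunit, measured 14.03, 35.11 and 28.62 FPKM, and Polr2e, a subunit shared by the RNA polymerases, measured 50.15, 120.21 and 90.91 FPKM. Exosc6, a subunit of the RNA exosome, measured 3.08, 9.16 and 4.28 FPKM. Znhit6, a box C/D assembly factor, was the exception past 2-fold in the other direction, with 80.78, 32.52 and 31.75 FPKM. Krr1, of small subunit processing, measured 22.01, 15.07 and 12.34 FPKM. In Ti+Se-Met against Ti, 113 of the 128 were lower, against 61.1% of all genes, with a median of -0.26. The choice of genes matters for the size. Among genes that the table annotates to the KEGG pathway of ribosome biogenesis and that are on no list used here, a set chosen after the table was seen, 18 of 27 (66.7%) were higher in Ti, against 55.3% of all genes, and the median was 0.25, against 0.08.

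Known MYC-induced genes outside the nucleolus, on a list likewise chosen with earlier results known, were also higher with Ti. All 22 on the list were higher by some amount, 12 at least 1.5-fold and 4 at least 2-fold, with a median log2 difference of 0.64. The shares of all genes were 55.3%, 15.5% and 3.63%. Apex1, a DNA repair endonuclease, measured 24.02 FPKM in CTL, 88.9 with Ti and 60.52 with Ti plus Se-Met. Shmt2, a mitochondrial serine hydroxymethyltransferase, measured 38.51, 126.41 and 99.56 FPKM, and Nme1, a nucleoside diphosphate kinase, measured 59.78, 129.75 and 103.11 FPKM. The smallest differences of this list included Paics, a purine synthesis enzyme, at 147.96, 152.52 and 142.87 FPKM. Genes known to be repressed by MYC did not share one direction. The cell cycle inhibitor gene Cdkn1b was lower in Ti (82.47, 50.83 and 56.48 FPKM) and so was Ndrg1 (50.43, 37.14 and 35.21 FPKM), whereas the inhibitor gene Cdkn1a was higher (153.56, 252.53 and 214.06 FPKM), as was the stress gene Gadd45a (6.92, 13.7 and 16.18 FPKM).

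The cytosolic ribosomal proteins, the end products that the factors assemble, differed less than the factors. Of 79 genes, 78 were higher in Ti, 26 at least 1.5-fold and 0 at least 2-fold, with a median log2 difference of 0.51. Of all genes, 55.3%, 15.5% and 3.63% were. In Ti+Se-Met against Ti their median was -0.04, close to that of all genes. Proliferation genes moved with the biogenesis genes in Ti but not in Ti+Se-Met. Of 21 such genes 20 were higher in Ti, against 55.3% of all genes, with a median of 0.71. In Ti+Se-Met 18 were higher than in Ti, against 38.5% of all genes, with a median of 0.25. Mcm7, a subunit of the replicative helicase, measured 17.71, 51.05 and 49.02 FPKM, Top2a measured 29.95, 33.66 and 48.65 FPKM, and the proliferation marker Mki67 measured 17.33, 16.29 and 27.18 FPKM. The summed osteoblast markers, given above, were lower in Ti than in CTL, opposite to most proliferation genes. From Ti to Ti+Se-Met the sum was higher, in the same direction as most proliferation genes. Within the sum, Col1a1 measured 1333.19, 354.2 and 481.63 FPKM. That sum rests mainly on Col1a1 and Col1a2, and Alpl and Bglap did not follow it throughout. The part of proliferation and of the osteoblast state in the levels of the 44 genes was not tested.

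**Figure D4:**
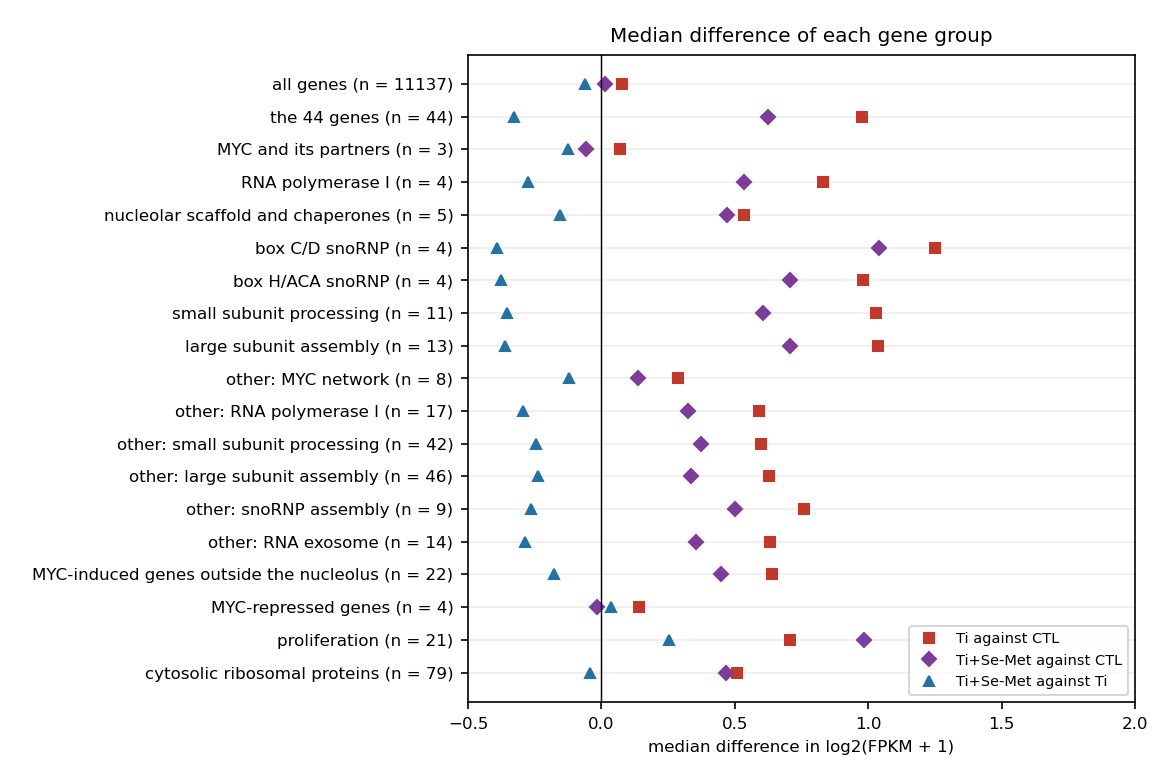
Median difference in log2(FPKM + 1) of all genes, the 44 genes, their 7 role groups and 10 further lists, with a square for Ti against CTL, a diamond for Ti+Se-Met against CTL and a triangle for Ti+Se-Met against Ti. Box C/D snoRNP genes have the highest median in Ti at 1.25, and proliferation genes are the list whose triangle lies farthest to the right, at 0.25.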

How the data were processed

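MC3T3-E1 RNA-seq comprised 3 libraries, 1 per condition. According to the methods and the submitters' processing notes, adapter and low-quality reads were removed and reads were aligned with HISAT2. The notes also name SAMtools, StringTie and build mm9, and the methods name HTSeq. The authors deposited FPKM values per gene with 2 decimals. How FPKM was made is not given in the sources used here. All value columns matched a library (0 unmatched), and the libraries' labels do not say whether cultures were separate.

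Values were transformed as log2(FPKM + 1) and subtracted between libraries (scipy 1.17.1, pandas 2.3.3, numpy 2.4.6 and matplotlib 3.10.9 under Python 3.11.15). Genes that reached 1 FPKM in any library were kept. FPKM are not counts, so no count test was run. Depth was estimated from single-transcript genes (350 to 1000 bases long, less 150). Interval lengths were the shortest matched GENCODE M21 transcript, up to 3000 bases, again less 150. Steps were tested on simulated data.

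The members and lists were chosen with earlier results of these data known. All 44 genes could be named. On other lists, the 3 largest and 3 smallest differences in Ti above a mean FPKM of 5, and every gene of lists of up to 10, could be named. The settings varied were the pseudocount (0.1 or 5), the filter (none, or a mean of 5 FPKM) and the scale (TPM, median of ratios, upper quartile).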

Additional observations from a re-analysis of the deposited data

How the results depend on the processing

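No paired analysis was possible because replicates were lacking (1 library per condition), so no library could be left out either. Of the 44 genes, those at least 2-fold higher in Ti against CTL numbered 20 as deposited, 11 with a pseudocount of 5, 8 as TPM and 12 when scaled to the upper quartile, while all genes past 2-fold numbered 404, 160, 233 and 242. For Ti+Se-Met against CTL, the 4 genes past 2-fold became 2 with a pseudocount of 5 and 1 as TPM, and the 26 past 1.5-fold became 14 as TPM. All genes past 2-fold there numbered 294, 121 and 224. As TPM the median log2 difference was 0.78 rather than 0.98 in Ti against CTL, and 0.45 rather than 0.63 in Ti+Se-Met against CTL. A pseudocount shrinks differences by construction, and TPM lowers every value of the library with the larger FPKM sum. The share of promoters with an E-box was 46.81% when CACGCG was also accepted (25.49% of promoters of genes that passed the filter) and 6.383% in the 250 bases before the start. Of 924 single-gene differences over 7 alternatives, 8 changed sign, all of genes under 1.5-fold, and 0 differences past 1.5-fold did so. The sign changes were of Max, Dkc1, Npm1, Ncl and Npm3. Precision was limited most for Nip7 and in the shallowest library, Ti+Se-Met.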
